A study of Mus musculus with 5 samples.

Results

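The genes described here are the DNA methyltransferases Dnmt1, Dnmt3a and Dnmt3b, their cofactor Dnmt3l, the dioxygenases Tet1, Tet2 and Tet3, and 3 genes that act with them, Uhrf1, Tdg and Dppa3. They were taken as a fixed set of 10 genes, whatever their level, and a probe was assigned to one of them when its accession led to that gene in the RefSeq gene table. Of the 10 genes, 9 had at least 1 probe, with 16 probes in all, among the 18327 genes that could be named on the array. No probe matched Tet1, which was not analysed here. Transcript levels were measured once in each of 5 mouse cell populations, on 1 Agilent array each.

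The ES array held E14 embryonic stem cells and the Hepa1-6 array a mouse hepatoma line, and these were the parents of EHe, hybrid cells made by fusing E14 with Hepa1-6. EHeD7 and EHeD14 were EHe cells after differentiation for 7 and 14 days. The medium of E14 and EHe held leukemia inhibitory factor and serum replacement, whereas the labels give high-glucose medium with fetal calf serum for Hepa1-6 and, on gelatin as a monolayer, for the differentiating hybrids, so that medium and cell state changed together and cannot be told apart. In the study's methods the ES parent carried RFP and hygromycin resistance, hybrids were selected in hygromycin and neomycin and nearly all hybrid lines were near-tetraploid. Whether the EHe array came from 1 clone was not given in the sources used here. The methods also describe differentiation as embryoid bodies, without naming the array samples.

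Cytosine methylation at CpG sites is copied to the new DNA strand after replication by Dnmt1, which is brought to half-methylated sites by Uhrf1. New methylation is laid down by Dnmt3a and Dnmt3b, with Dnmt3l as a cofactor that has no catalytic activity of its own. The TET enzymes oxidise methylcytosine, Tdg excises the more oxidised forms so that base excision repair can restore cytosine, and Dppa3 (also called Stella) is known to protect methylation in the zygote and to restrain Uhrf1. In mouse embryos and ES cells, Dppa3 is known as a gene of the naive state, while high Dnmt3b is a mark of the later, primed epiblast. DNA methylation itself was not measured on these arrays.

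Levels below are log2 intensities relative to the 75th percentile of the same array, so that 0 is that percentile, and a level is compared only between arrays for the same probe, never between probes. With 1 array per group there was no replicate error and no test was possible. A gene is said to have risen or fallen where the difference was over 3-fold (the fold size the study used, here without the test it was paired with) and the probe was well above background, by the scanner software's call, on at least 1 of the arrays compared. Where a probe was not well above background on 1 of the arrays, its value there was replaced by the lowest signal called well above background, and the fold is given as at least that size. The SD between spots of probes printed 10 times ran from 0.11 to 0.16 (log2), which covers spot noise only. This puts the 95% range of spot noise for a difference between arrays at 0.35 to 0.44 (log2).

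The 75th percentile of the signal lay between 1087 in ES and 1456 in Hepa1-6, and between 54.7% and 67.6% of probes were well above background. The Hepa1-6 array was hybridised on a different slide from the other 4, so the slide and the hepatoma line cannot be told apart. The labels were checked against marker genes. All 8 pluripotency markers with a probe were above background on the ES, EHe, EHeD7 and EHeD14 arrays and 3 on the Hepa1-6 array, where Pou5f1 was not. Of 10 hepatocyte markers, 8 were above background in Hepa1-6, with Alb and Afp at levels of 6.06 and 6.77 and Ttr and Apoa1 not above background. Both differentiated hybrids had 3 of the 10 hepatocyte markers above background, Hnf4a, Foxa2 and Trf. Alb, Afp, Ttr, Apoa1, Apoa2, Fgb and Foxa1 were not. Foxa2 was at -4.57 in EHeD7 and -2.43 in EHeD14, against -2.85 in ES and 3.38 in Hepa1-6. It was over 3-fold above EHe at day 14. Of the markers above background in Hepa1-6, Alb, Afp, Apoa2, Fgb and Foxa1 were therefore not detected in the differentiated hybrids. By RT-PCR the study reports a return of tissue-specific expression on differentiation, with Alb as the hepatic marker. That RT-PCR was on embryoid bodies harvested before day 14, whereas the labels give a monolayer for the array samples. The RT-PCR and array results are therefore not from a like culture and time course.

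The plainest pattern was that Dnmt3b rose and Tet2 fell when the hybrids differentiated, at both days, while the other measured genes of the set moved less or at 1 day only. The next was the hepatoma parent, in which Dnmt3a, Dnmt3b, Dnmt3l, Uhrf1 and Dppa3 were all over 3-fold below ES. In the undifferentiated hybrid, Dppa3 was the 1 gene of the 9 over 3-fold from ES.

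**Figure D1:**
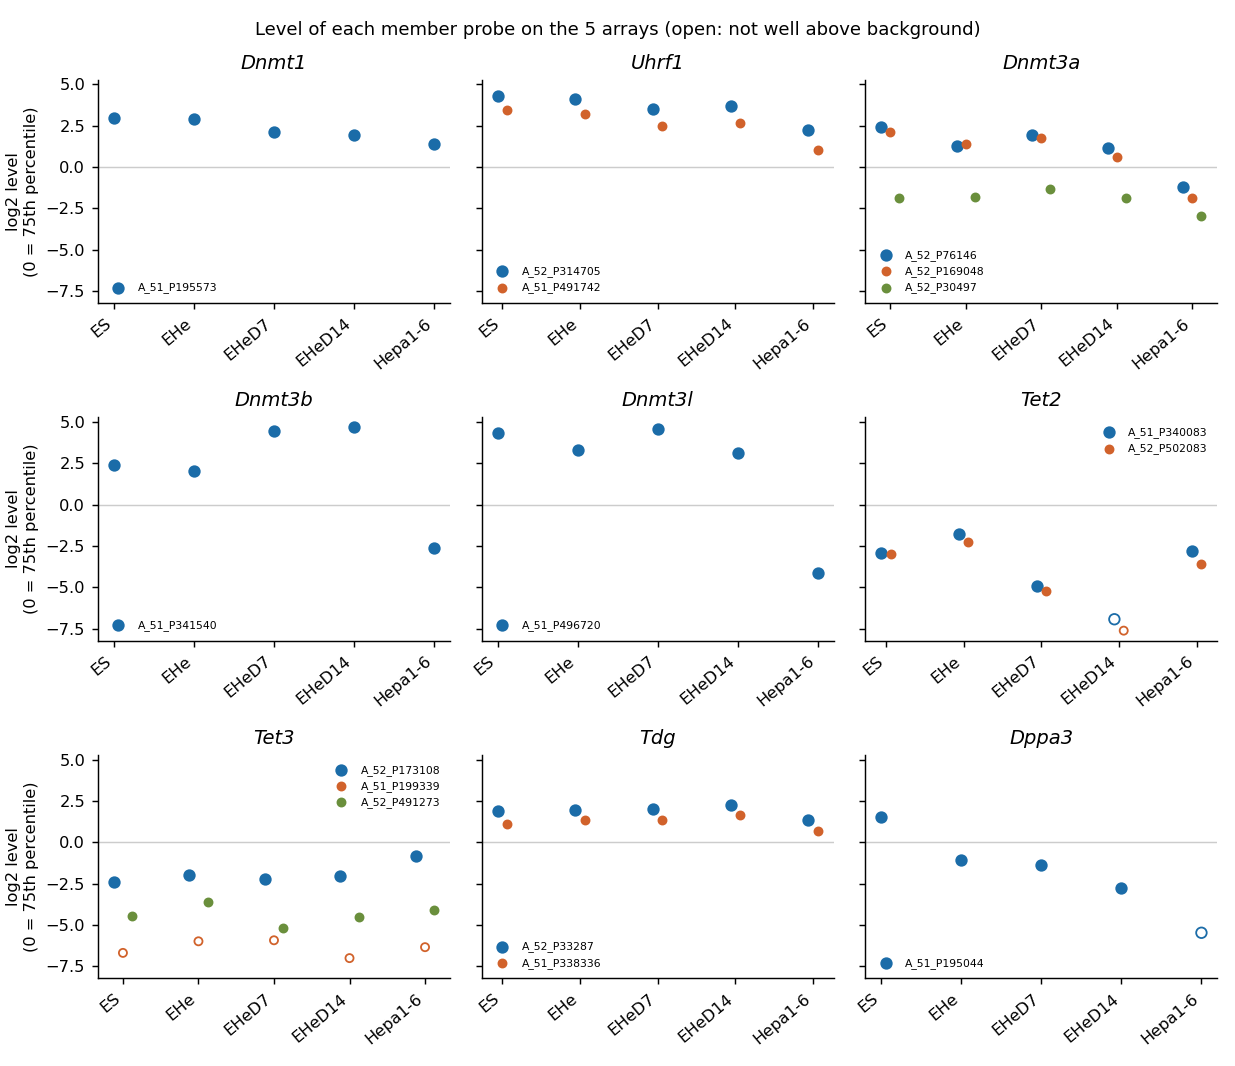
Level of each probe on the 5 arrays, 1 panel per gene. The vertical axis is the log2 level relative to the array's 75th percentile, colours separate the probes of a gene (the largest symbols are the probe used for counts) and open symbols were not well above background. Dnmt3b lay at 4.48 and 4.67 in the differentiated hybrids against 2.02 in EHe, and Tet2 fell from -1.76 in EHe to -4.90 in EHeD7.

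Promoters are printed for the genes on which the results turn, so that the regions upstream of them can be compared. Each is the 250 bases before a start site listed by RefSeq on build GRCm38.p6, read 5′ to 3′ on the strand of the gene, with every CpG, the target of these enzymes, in capitals. They are Dnmt3b at chr2:153649199-153649448 (plus strand, 21 CpG), the first listed start of Dnmt3l at chr10:78042037-78042286 (plus strand, 5 CpG), Tet2 at chr3:133544391-133544640 (minus strand, 51 CpG) and the second listed start of Uhrf1 at chr17:56304063-56304312 (plus strand, 30 CpG).
Dnmt3b: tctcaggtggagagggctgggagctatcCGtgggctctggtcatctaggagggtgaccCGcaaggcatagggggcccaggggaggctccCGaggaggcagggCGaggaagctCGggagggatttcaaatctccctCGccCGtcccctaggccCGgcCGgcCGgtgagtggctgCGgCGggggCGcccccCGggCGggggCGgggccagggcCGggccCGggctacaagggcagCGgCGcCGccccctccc
Dnmt3l: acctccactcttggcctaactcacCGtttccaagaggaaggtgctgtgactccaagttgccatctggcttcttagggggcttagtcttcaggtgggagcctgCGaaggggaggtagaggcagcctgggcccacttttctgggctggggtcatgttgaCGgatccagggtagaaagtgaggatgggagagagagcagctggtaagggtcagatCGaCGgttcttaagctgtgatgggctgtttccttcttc
Tet2: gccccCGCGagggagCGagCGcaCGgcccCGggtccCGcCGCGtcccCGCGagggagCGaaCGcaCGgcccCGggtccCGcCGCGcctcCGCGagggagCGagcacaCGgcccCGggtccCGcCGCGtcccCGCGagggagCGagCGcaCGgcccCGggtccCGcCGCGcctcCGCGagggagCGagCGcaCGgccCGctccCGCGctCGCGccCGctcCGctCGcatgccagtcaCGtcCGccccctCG
Uhrf1: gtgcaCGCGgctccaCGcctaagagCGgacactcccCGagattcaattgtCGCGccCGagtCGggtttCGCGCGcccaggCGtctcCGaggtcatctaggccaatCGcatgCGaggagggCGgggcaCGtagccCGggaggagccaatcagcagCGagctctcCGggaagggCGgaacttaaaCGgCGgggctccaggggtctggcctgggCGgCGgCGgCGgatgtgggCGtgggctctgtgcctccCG

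Over all 32851 promoters in the table the median was 6 CpG. The Tet2 promoter held more CpG than 99.9% of them and is built of a repeated unit, Dnmt3b held more than 83.7%, and the Dnmt3l start held more than 44.4%. The 2 further starts of Dnmt3l held 4 and 3 CpG, so all 3 Dnmt3l starts were CpG-poor beside Dnmt3a, whose 3 starts held 38, 40 and 15, or Tdg, with 19. The listed starts of Dnmt1 held 2, 7 and 26, so a low count was not particular to Dnmt3l. E2F-type motifs were searched on both strands (TTTCCCGC, TTTCGCGC, TTTGCCGC and TTTGGCGC), and 1.86% of all promoters held at least 1 of them. TTTCGCGC was present in the printed Uhrf1 promoter and at the third listed start of Dnmt1, and none of the 4 was in the other listed promoters of the set. No promoter was listed for Dppa3, which was not searched. A match is a string of letters and was not tested as a binding site.

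Dnmt1, the maintenance methyltransferase, was highest in the undifferentiated pluripotent cells. Its level was 2.96 in ES and 2.89 in EHe, 2.11 in EHeD7 and 1.93 in EHeD14, and 1.39 in Hepa1-6. ES and EHe did not differ beyond spot noise, nor did the 2 differentiated hybrids, and each of these pairs lay above the next array in the order. Under median centring, however, both differentiated hybrids lay below Hepa1-6, and EHeD14 against Hepa1-6 turned from 0.54 to -0.26. The differences from EHe were -0.78 at day 7 and -0.97 at day 14 (log2), and Hepa1-6 stood 2.97-fold below ES, so that none passed the 3-fold threshold.

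Uhrf1, the partner that recognises half-methylated CpG, was ordered in nearly the same way. Its level by the probe used for counts was 4.33 in ES and 4.11 in EHe, then 3.68 in EHeD14, 3.51 in EHeD7 and 2.25 in Hepa1-6. Hepa1-6 was 4.21-fold below ES, and the second probe gave a difference of -2.41 (log2) for the same pair. Both probes placed the differentiated hybrids between EHe and Hepa1-6, with differences from EHe of -0.60 at day 7 and -0.43 at day 14 for the first probe, inside 3-fold.

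Dnmt1 and Uhrf1 are known as genes of cycling cells, and 20 measured genes of DNA replication (the S phase list) were set beside them. None of the 20 passed 3-fold at either day of differentiation, and their median difference from EHe was -0.42 at day 7 and -0.32 at day 14. In Hepa1-6, 12 of the 20 were over 3-fold below ES, with a median of -1.61, against -1.57 for Dnmt1 and -2.07 for Uhrf1. The replication genes thus lay lower on the same array as the maintenance pair, and their part in the result was not tested. In these bulk samples, fewer cells of a type and less RNA per cell cannot be told apart.

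Among 13 partners of maintenance and heterochromatin, none passed 3-fold in EHe against ES or in either differentiated hybrid against EHe, with medians of -0.02, -0.33 and -0.32. Hepa1-6 was over 3-fold below ES for 4 of them. They were the chromatin remodeller Hells (-2.18), the DNA ligase Lig1 (-3.08), the histone demethylase Kdm1a (-2.05) and the heterochromatin protein Cbx1 (-1.70). Pcna, the replication clamp that also carries Dnmt1, stood at -1.06 in that comparison, and Uhrf2, the paralogue of Uhrf1, at 1.24.

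Dnmt3b, the de novo methyltransferase of the early epiblast, was the gene of the set that rose at both days. Its level was 2.38 in ES and 2.02 in EHe, reached 4.48 in EHeD7 and 4.67 in EHeD14, and was -2.65 in Hepa1-6. The differentiated hybrids were the 2 highest arrays and lay within spot noise of each other, ES and EHe were the next pair, also within spot noise, and Hepa1-6 was far below.

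Against EHe, Dnmt3b rose 5.51-fold at day 7 and 6.29-fold at day 14. The day 14 difference, 2.65 on the log2 scale, was higher than that of 97.2% of the 14281 genes compared, and the day 7 difference, 2.46, higher than that of 96.8% of 14692. Both comparisons share the EHe array. Against ES, which does not enter them, Dnmt3b was 4.29-fold higher at day 7 and 4.89-fold higher at day 14. Hepa1-6 stood 32.6-fold below ES, so that the level in EHeD14 was 159-fold that of the hepatoma parent. Under the 7 alternatives that keep the 3-fold threshold, the day 14 difference stayed between 2.53 and 2.77, and that of day 7 between 2.30 and 2.61. Some of these could not move a gene with a single probe above background on all arrays. They were the series table, which holds the same values, the mean of probes and the values without a detection limit.

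Dnmt3l, the catalytically inactive cofactor, was high in the pluripotent cells and hybrids and low in the hepatoma, with the widest difference between the parents in the set. ES cells had a level of 4.34 and EHe of 3.30, EHeD7 of 4.58 and EHeD14 of 3.10, and Hepa1-6 of -4.16. Hepa1-6 was 363-fold below ES, a log2 difference of -8.50 that only 0.385% of the 14562 genes compared fell below. The 4 other arrays lay within a range of 1.48, with EHeD7 and ES as the upper pair and EHe and EHeD14 as the lower pair, each pair within spot noise.

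Dnmt3l did not follow Dnmt3b over time. It stood 2.42-fold above EHe at day 7, inside the threshold, and at day 14 the difference from EHe was -0.21, within spot noise. Between the 2 days Dnmt3l fell short of the threshold at 2.80-fold lower, whereas Dnmt3b differed by 0.19. Only 0.790% of the 14691 genes compared between the 2 days had a lower value than Dnmt3l.

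Dnmt3a, the second de novo enzyme, was read by 3 probes that did not agree on size. By the probe used for counts the level was 2.45 in ES and 1.30 in EHe, 1.96 in EHeD7 and 1.13 in EHeD14, and -1.19 in Hepa1-6. The second probe (A_52_P169048) gave 2.11, 1.39, 1.75, 0.64 and -1.85 for the arrays in that order. The third (A_52_P30497) gave -1.89, -1.78, -1.30, -1.86 and -2.95, a narrower span. Hepa1-6 was the lowest array for all 3.

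The difference of Hepa1-6 from ES was 12.4-fold lower by the first Dnmt3a probe and ran from -3.96 to -1.07 (log2) over the 3. In EHe against ES the probes gave -1.15 to 0.10, so they disagreed in sign as well. On differentiation all 3 were above EHe at day 7, by 0.36 to 0.66, and at or below it at day 14, by -0.75 to -0.08. All of these values lay inside 3-fold. Dnmt3a has several transcripts, and which of them each probe reads was not analysed here.

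Tet2, which converts methylcytosine to hydroxymethylcytosine, fell at both days. Its level was -1.76 in EHe, -2.80 in Hepa1-6 and -2.92 in ES, against -4.90 in EHeD7 and -6.93 in EHeD14, where the probe was not well above background. EHe was the highest array, ES and Hepa1-6 were within spot noise of each other by this probe, and the 2 differentiated hybrids were lowest. The second probe gave -2.25, -3.57, -3.00, -5.22 and -7.62 for the arrays in that order, and it too was not well above background in EHeD14.

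Against EHe, Tet2 was 8.81-fold lower at day 7 and at least 13.8-fold lower at day 14. In these comparisons, which share the EHe array, 1.01% of genes had a lower difference at day 7 and 0.854% at day 14. The second probe gave -2.97 at day 7 and a bound of -3.30 at day 14 (log2). Against ES the fall was 3.96-fold at day 7 and at least 6.23-fold at day 14. Both calls against EHe were kept under the 7 alternatives, of which the series table, holding the same values, could not differ. The log2 differences spanned -3.38 to -1.79 at day 7. At day 14 they spanned -5.16 to -2.35. The smallest sizes came with normexp background correction. Tet2 signals lay below the 75th percentile on every array and near background in EHeD14, which limits how well the size of its fall is known.

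Tet3, the TET enzyme known for its role in the zygote, differed between its probes. The probe used for counts gave -1.97 for EHe, -2.04 for EHeD14, -2.23 for EHeD7, -2.42 for ES and -0.80 for Hepa1-6. The 4 arrays other than Hepa1-6 formed a chain of neighbours within spot noise, and the hepatoma stood above them, 3.06-fold over ES. That call rests on 1 probe. A second probe (A_52_P491273) gave 0.40 for Hepa1-6 against ES, and the mean of the probes gave 0.78, both inside 3-fold. By that second probe EHe (-3.61) was the highest array, above Hepa1-6 (-4.07), ES (-4.47), EHeD14 (-4.52) and EHeD7 (-5.19), while the remaining probe was not well above background on any array. On differentiation the probe used for counts gave -0.25 at day 7 and the second -1.58, also inside 3-fold.

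Tdg, the glycosylase that removes oxidised methylcytosine, was the steadiest gene of the set. Its level was 1.89 in ES and 1.95 in EHe, 1.99 in EHeD7 and 2.26 in EHeD14, and 1.36 in Hepa1-6, and each pair of neighbours among the 4 arrays with pluripotent cells and hybrids lay within spot noise. The second probe gave 1.13, 1.34, 1.37, 1.65 and 0.66 for these arrays. Hepa1-6 was lowest by both probes, at -0.53 and -0.47 from ES, but this difference turned to 0.27 under median centring.

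Dppa3 was the gene of the set that was over 3-fold from the ES parent in the undifferentiated hybrid. Its level was 1.51 in ES but -1.09 in EHe, -1.40 in EHeD7 and -2.75 in EHeD14, and it was -5.47 in Hepa1-6, where it was not well above background. ES stood alone at the top, EHe and EHeD7 were within spot noise of each other, and EHeD14 lay below both. The hybrid was 6.09-fold below ES, and 0.780% of the 14111 genes compared had a lower difference. At day 14 Dppa3 fell a further 3.15-fold from EHe, a call that was lost with normexp (-1.11) and with the 75th percentile taken over probes above background on all arrays (-1.54). Hepa1-6 was at least 113-fold below ES.

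**Figure D2:**
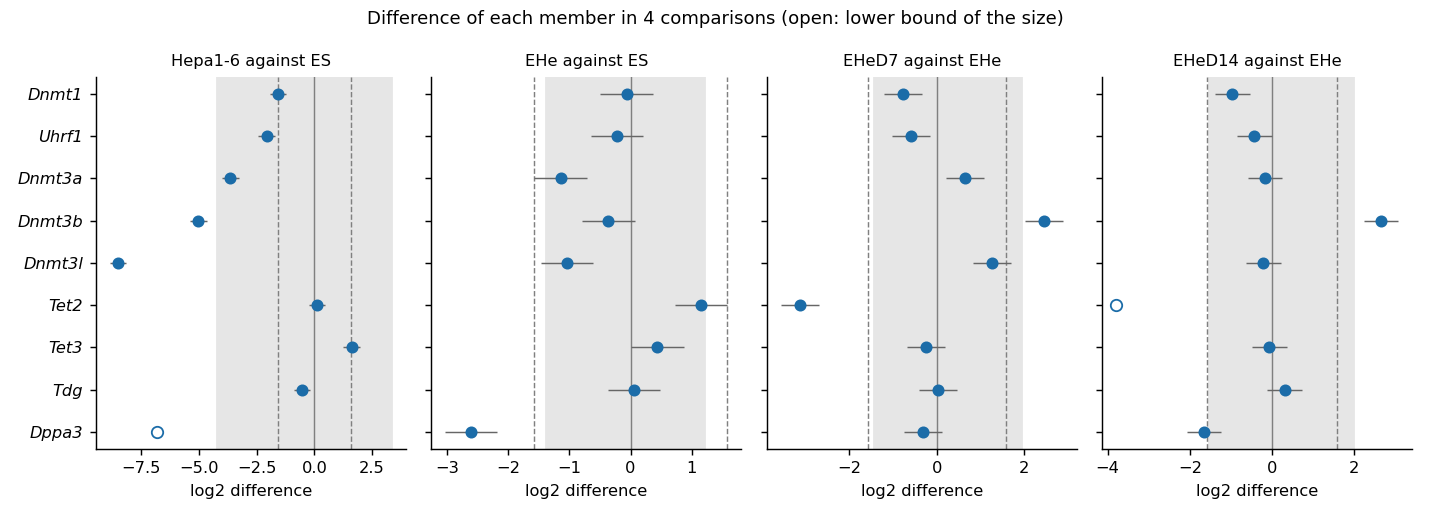
Log2 difference of the 9 measured genes in 4 comparisons, by the probe used for counts. Bars are the 95% range of spot noise, the grey band holds the middle 90% of all genes compared, dashed lines mark 3-fold and open symbols are bounds, without a bar. Dnmt3b at 2.46 and 2.65 and Tet2 at -3.14 and -3.79 lie outside the grey band on differentiation.

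Counted over the set, Hepa1-6 against ES gave 1 gene of 9 over 3-fold higher (Tet3), where 13.9% of all genes were, and 5 over 3-fold lower (Uhrf1, Dnmt3a, Dnmt3b, Dnmt3l and Dppa3), where 22.2% were. The median over the 9 was -2.07 against -0.42 for all genes compared. Scaling mattered here. When arrays were centred on their medians instead, the median of all genes moved to 0.32, the share of higher genes among those past 3-fold went from 38.5% to 65.0%, and Uhrf1, at -1.27, no longer passed. With quantile normalization that share was 49.9%. Dnmt3a, Dnmt3b, Dnmt3l and Dppa3 remained over 3-fold lower under all 7 alternatives. Of these, the series table could not differ, nor could the mean of probes for genes with a single probe.

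In EHe against ES, no gene of the set was over 3-fold higher, where 2.58% of all genes were, and 1 was lower (Dppa3), where 3.52% were. The median was -0.22 against -0.12. Beyond spot noise but inside 3-fold were Dnmt3a at -1.15, Dnmt3l at -1.04, Tet2 at 1.15 and Tet3 at 0.44. Centred on medians, the share of higher genes among those past 3-fold in this comparison went from 42.3% to 53.8%.

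In EHeD7 against EHe, 1 gene was higher (Dnmt3b), where 7.05% of all genes were, and 1 was lower (Tet2), where 4.29% were. In EHeD14 against EHe, 1 was higher (Dnmt3b), where 7.32% were, and 2 were lower (Tet2 and Dppa3), where 4.74% were. The medians were -0.25 and -0.21, against -0.02 over all genes at either day. In a set of 9, a count of 1 or 2 says little beside these shares, and the description rests on the sizes of the differences.

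EHeD14 was also set against each parent. Against Hepa1-6, 4 genes were over 3-fold higher (Dnmt3a, Dnmt3b, Dnmt3l and Dppa3), where 18.6% of all genes were, and 1 was lower (Tet2), where 12.9% were. Here too median centring changed the split of all genes, from 59.1% higher to 33.2%, and Dnmt3a, at 1.52, no longer passed, while Tet3, at -2.04 in place of -1.24, did. Against ES, 1 gene was higher (Dnmt3b), where 7.96% were, and 2 were lower (Tet2 and Dppa3), where 7.11% were.

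Placed between the parents, 8 of the 9 genes were nearer to ES than to Hepa1-6 in EHe, 8 in EHeD7 and 7 in EHeD14, on the values as measured. The same count was not made over all genes. Of all genes compared, 2.58% were over 3-fold higher and 3.52% lower in EHe against ES. Hepa1-6 against ES gave 13.9% and 22.2%, so the counts are not read as particular to the set. For Tet2 the parents lay within spot noise of each other by the probe used for counts (0.11) but not by the second (-0.56), so its place says little. Dnmt1 was nearer to Hepa1-6 in both differentiated hybrids, at 0.73 and 0.54 above it, and Dppa3 was nearer to it at day 14. Under median centring both Dnmt1 differences turned negative, that of day 14 to -0.26. By the probe used for counts, levels outside the span of the parents by more than spot noise were found for Dnmt3b and Tet2. Dnmt3b lay above ES in both differentiated hybrids. Tet2, by either probe, lay above both parents before differentiation and below both after it. Further probes also left the span, for Dnmt3a in EHeD7 (0.59 from ES) and Tdg in EHeD14 (0.52 from ES). The second Tet3 probe did so in EHe (0.46 from Hepa1-6) and in EHeD7 (-0.72 from ES).

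**Figure D3:**
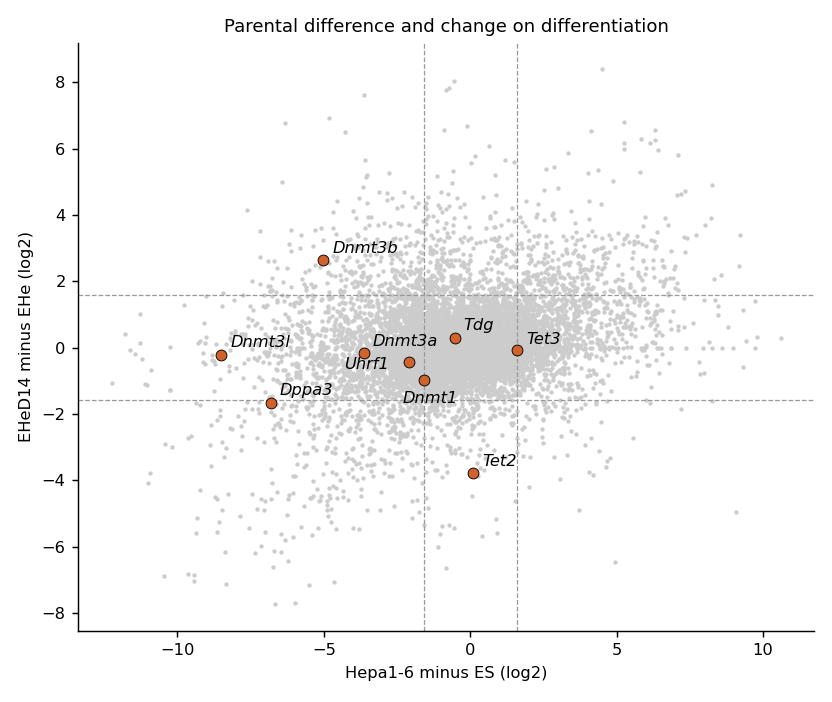
Difference between the parents (horizontal axis, Hepa1-6 minus ES, log2) against the change on differentiation (vertical axis, EHeD14 minus EHe, log2) for all named genes with both values (grey) and the measured genes of the set (orange). Dashed lines mark 3-fold. Dnmt3b lies at -5.03 and 2.65, and Tet2 at 0.11 and -3.79, the latter a bound.

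The genes whose levels ran closest to a member over the 5 arrays were sought by the root mean square difference of levels, each probe centred on its own mean. For Dnmt3b they were Ckmt1 (0.27), Tenm3 (0.35) and Sec14l4 (0.37) of 10914 genes compared. For Dnmt3l they were Nid2 (0.41), Mycn (0.49) and Fkbp10 (0.54), and for Uhrf1, Smarcb1 (0.03), Rcc1 (0.05) and Pip4p1 (0.06). For Dppa3, among the 1571 genes above background on the same arrays, they were Fam183b (0.32), Id4 (0.37) and Cryge (0.43). The likeness is over 5 points only and was not tested.

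The state of the differentiated hybrids was read from marker lists. Of the 8 pluripotency markers, Sox2, Zfp42, Esrrb and Klf4 fell at both days, while Pou5f1 differed from EHe by 0.36 and 0.13. Of the markers of the primed epiblast, Fgf5, Otx2, Pou3f1, T and Eomes rose at both days, Fgf5 by at least 145-fold at day 7 and at least 227-fold at day 14. Against ES, Fgf5, Pou3f1, T and Eomes were also over 3-fold higher at both days, but Otx2 was not. Otx2 was at 2.31 in ES and -0.55 in EHe, against 3.48 in EHeD7 and 3.59 in EHeD14. Lefty2, on the same list, stood at -0.82 at day 7 and fell at day 14 (-2.22). Dnmt3b, which was not on that list, had the same direction as the 5 that rose on the same arrays. Of 10 fibroblast and mesenchyme markers, Col1a1, Col1a2, Thy1 and Pdgfrb also rose at both days, Col1a1 by 22.1-fold at day 7. Of these, Col1a1 and Thy1 were over 3-fold above ES at both days, and Col1a2 and Pdgfrb were inside 3-fold of it. Pdgfrb was at -1.18 in ES and -4.47 in EHe, against -1.67 in EHeD7 and -2.18 in EHeD14. Vim, on the same list, fell at day 7 (-1.78) and stood at -1.38 at day 14. The summed level of that list was 4.49, 5.34, 4.06, 4.39 and 2.81 in ES, EHe, EHeD7, EHeD14 and Hepa1-6, with 6 genes above background in EHe and 9 in each differentiated hybrid. Their part in the changes of Dnmt3b and Tet2 was not tested.

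Proteins that protect imprints and silence repeats were measured for 8 genes, of which 3 fell at both days. They were Zfp57, a zinc finger protein that keeps imprints methylated, at -1.83 and -1.73, Zfp42 at -3.06 and -4.09, and Morc1, a silencer of transposons in germ cells, at -3.75 and -6.16. Trim28, the cofactor of Zfp57, differed from EHe by -0.80 and -0.78. The list medians were -0.80 and -0.85.

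Of 10 readers of methylated CpG, 9 could be compared, and Zbtb38 fell at both days (-1.64 and -2.09). None rose. Mbd1 (2.69), Mbd2 (1.76), Zbtb4 (4.54) and Zbtb38 (3.15) were over 3-fold above ES in Hepa1-6, whereas the median over the methyltransferase set was -2.07 on the same pair of arrays.

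Downstream of oxidation, none of 11 base excision repair genes passed 3-fold on differentiation at either day, with medians of -0.29 and 0.09. Ung (-4.19), Apex1 (-2.57) and Parp1 (-2.40) were lower in Hepa1-6 than in ES. None of the 7 comparable partners of TET and CXXC proteins passed at either day, Ogt, which binds TET proteins, differing from EHe by 0.03 and -0.13. Among 7 deaminases and Gadd45 genes, Apobec2 fell at both days (-3.10 and -2.90) and Gadd45a at day 14 (-2.34).

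The supply of methyl groups and of 2-oxoglutarate, the cosubstrate of the TET enzymes, was followed in 18 genes. Gnmt, which consumes S-adenosylmethionine, rose at both days (2.37 and 2.57), and no other gene of the list rose over 3-fold at either day. Mat2a, which makes S-adenosylmethionine, differed from EHe by -0.57 and -0.64. Tdh, the threonine dehydrogenase of mouse ES cells, was the 1 gene of the list over 3-fold from ES in EHe (-1.61).

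Germline genes that are known to be held silent by promoter methylation in somatic cells, of which 10 were measured, were examined as a readout of gene activity, since methylation was not measured. At day 7, 3 fell, Dazl (-3.20), Rhox5 (-5.23) and Tex19.1 (-1.69). At day 14, 6 fell, these 3 with Sycp1 (-2.75), Stk31 (-3.00) and Slc25a31 (a bound of -3.35), and none rose at either day. The list median went from -0.77 to -2.82. Ddx4, Mael and Tex101 stayed within 0.84 of EHe at both days, but Mael and Tex101 were already over 3-fold below ES in EHe. Taf7l was at -1.33 in EHe, 0.17 in EHeD7 and -1.15 in EHeD14, a higher level at day 7 that stayed inside 3-fold. In Hepa1-6, 9 of the 10 were over 3-fold below ES, where 22.2% of all genes were, and Rhox5, at 0.47, was the exception. Among 10 oocyte and germ cell markers, which include Dppa3 and share Dazl and Ddx4 with this list, 5 of 9 fell at day 7 and 7 of 8 at day 14.

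**Figure D4:**
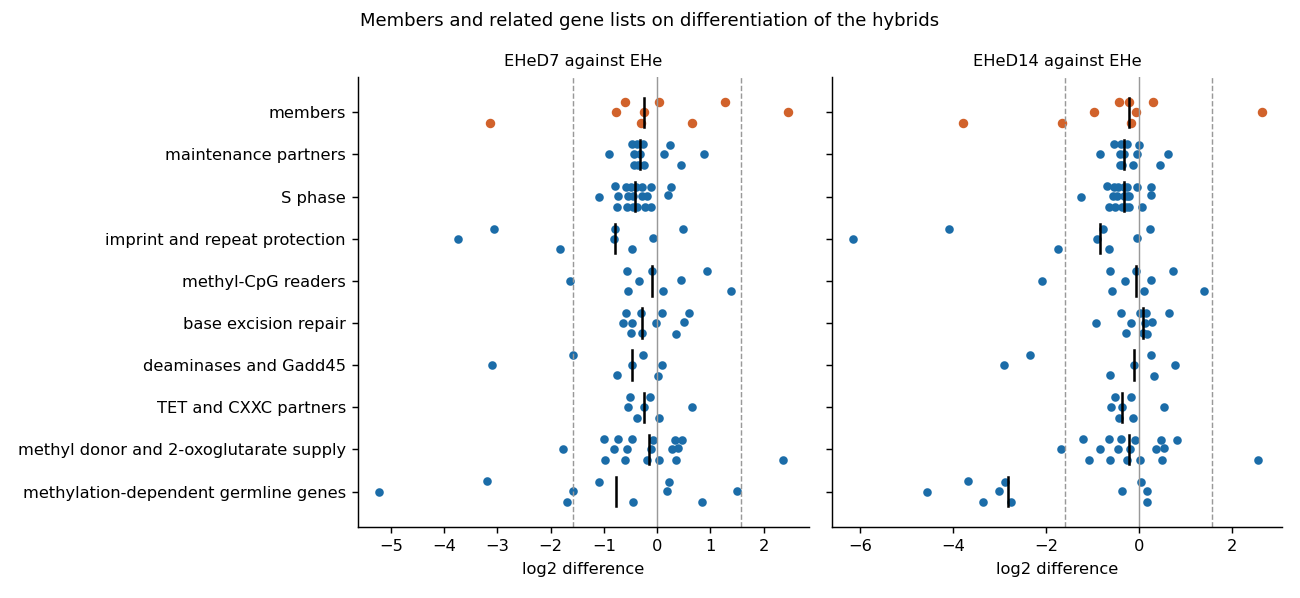
Log2 difference from EHe at day 7 (left) and day 14 (right) for the measured genes of the set (orange) and 9 related lists (blue). Each point is 1 gene, placed off its row centre for legibility only, black bars are medians and dashed lines mark 3-fold. The germline list has a median of -0.77 at day 7 and -2.82 at day 14, and the S phase list -0.42 and -0.32.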

How the data were processed

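Each of the 5 arrays was deposited as a table from Agilent Feature Extraction 10.7.3.1 (per the labels). The processed signal is an intensity, background-corrected and detrended by that software before the authors deposited it, with no normalization between arrays, and the deposited series table held the same values. The labels give Cy3 and the study's methods Cy5. The deposited calls for outlier and well-above-background spots were also used. Outlier spots (73 to 174 per array) and control spots were left out, the log2 of each signal was taken, the array's 75th percentile subtracted and spots of a probe averaged. Of 41174 probes, 26888 were named through RefSeq records and 14286 were left unnamed. The main probe of a gene was above background on the most arrays, then highest on average. No test was possible with 1 array per group, and differences were counted past 3-fold.

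The genes and lists were chosen with earlier results of these data known. All members are named with every probe. The genes most like a member are the 3 nearest, for Dnmt3b, Dnmt3l, Uhrf1 and Dppa3. Other genes are named where they passed 3-fold at both days, were among the 3 largest of their list or checked a label. A few more (Pcna, Uhrf2, Trim28, Ogt and Mat2a, genes past 3-fold between the parents or at day 14, and germline genes inside 3-fold) were named after their values were seen. Some genes of the lists are not reported here. The alternatives were quantile normalization, normexp with an offset of 50, median centring, another set of probes for the percentile, the series table, values without a detection limit, the mean of a gene's probes and a 2-fold threshold. The calculation was tested on simulated data. R 4.3.3 with limma 3.58.1 was used for normexp and quantile normalization, and Python 3.11.15 with pandas 2.3.3 and numpy 2.4.6 for the rest.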

Additional observations from a re-analysis of the deposited data

How the results depend on the processing

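No paired analysis was possible because there was a single array for every condition. Of 378 differences of single genes recomputed under an alternative, 312 moved by less than 1 SD of the spot noise, 66 moved by more, and none that passed 3-fold changed sign. Part of the 312 was fixed in advance. The series table held the same values, and the mean of probes repeats the value of a gene with a single probe. Leaving out the detection limit changes nothing where both arrays were above background. Of 48 counts, 45 stayed within 1.5 times. The exceptions were EHeD14 against Hepa1-6 with normexp, 3 genes past 3-fold in place of 5 (Tet2 at -1.56 and Dppa3 at 1.12 no longer passed), and the 2-fold threshold, which gave 4 in place of 1 for EHe against ES and 6 in place of 3 for EHeD14 against ES. With normexp, Tet3 in Hepa1-6 against ES (1.21) was lost and Dnmt1 (-1.72) gained. The small difference of Tet2 in that comparison changed sign with normexp (-0.07) and with the mean of its probes (-0.22). The number of arrays, 1 per condition, limits the precision, and signals near background limit Tet2 and Dppa3.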
